A study of Mus musculus with 4 samples.

Results

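Oxidative phosphorylation is carried out in the inner mitochondrial membrane by 5 protein complexes, and most of their subunits are encoded in the nucleus. The genes described here are these nuclear subunit genes, chosen by symbol alone: Nduf a, b, c, s and v genes (complex I), Sdha to Sdhd (complex II), Uqcr genes (complex III), Cox4 to Cox8 genes (complex IV) and Atp5 genes (complex V), with the Ndufaf assembly factors left out. The rule found 83 genes among the 19751 genes the array could name, 37 of complex I, 4 of complex II, 8 of complex III, 18 of complex IV and 16 of complex V. Of these, 80 were measured, among 15123 measured genes, where measured means that Feature Extraction marked a probe well above its local background on both WT arrays, on both Bach2KO arrays, or on all 4. The 80 genes were well above background on all 4 arrays, so the filter did not select them by genotype. The other 3, Cox7b2, Cox8b and Cox8c, were well above background on 0 arrays and are considered separately. Another 22 symbols of the rule were not found among the array's named probes, 15 of them pseudogenes by symbol. The rule follows gene names and not current protein assignments: it places Ndufa4, now known as a complex IV subunit, with complex I, and it takes in Ndufa4l2 and Cox7a2l, which are not structural subunits of the complex they are named for.

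The samples were alveolar macrophages, the resident phagocytes of the lung air spaces that clear surfactant, sorted by flow cytometry from the lungs of wild-type mice (WT) and of mice lacking Bach2 (Bach2KO), a transcriptional repressor of the BTB and CNC family. The question of the series is what Bach2 does for surfactant balance and for these macrophages. Cells of 8 WT mice were pooled, and those of 4 Bach2KO mice by the treatment protocol or 3 by the design text. The deletion's type (whole body or restricted to a cell type), the mice's age and the sorting gate were not in the labels used here. The RNA of each genotype, 1 sample, was split before amplification and labelling and hybridised to 2 single-colour arrays, and all 4 arrays lay on 1 slide. The 2 arrays of a genotype therefore measure technical error only. No test between genotypes was possible, no p-value is given, and a position on the slide and the genotype cannot be told apart.

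Electrons enter the respiratory chain from NADH at complex I and from succinate at complex II, pass through coenzyme Q to complex III and through cytochrome c to complex IV, which reduces oxygen. Complexes I, III and IV pump protons across the membrane, and complex V uses the return flow to make ATP. Alveolar macrophages take up and oxidise surfactant lipids, and their resident state is known to rely on mitochondrial respiration.

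Values are log2 processed signals relative to the 75th percentile of each array, and a difference is the mean of the Bach2KO arrays minus the mean of the WT arrays on that scale. A probe's brightness depends on its sequence, so levels of different genes are not compared. With 2 arrays a genotype there are 4 ways to set a Bach2KO array against a WT array, and only genes whose signal differed 2-fold or more, the same way, in all 4 were called higher or lower. The 75th percentile corresponded to signals of 979 to 1513, and each array had 27125 to 27918 of its 39429 probes well above background. The probe for Bach2 was well above background on 2 of the 4 arrays, at -6.32 and -6.28 in WT and -5.16 and -8.13 in Bach2KO, and gives no check of the labels. Of 9 measured alveolar macrophage markers, Siglecf, Marco, Fabp1 and Krt79 were lower by the 2-fold rule in Bach2KO (differences of -3.65, -1.85, -7.21 and -4.07) and 0 were higher. The 5 that were neither included Itgax, with a positive difference (0.59), and Pparg (-0.10), Mrc1 (-0.15) and Car4 (0.14). The markers' summed signal was 756 to 852 times the 75th percentile in WT and 642 to 649 in Bach2KO. Neutrophil markers summed to 3.83 to 4.03 in WT and 23.1 to 25.1 in Bach2KO, with 2 of 7 called higher. Of 7 T cell markers Cd3d, Cd3g and Lck were called higher and Cd2 lower, and the sum, 61.3 to 61.7 in WT and 23.1 to 23.5 in Bach2KO, was mostly the signal of the Cd2 probe (5.76 and 5.77 in WT, 3.85 and 3.82 in Bach2KO). Endothelial markers summed to 14.1 to 15.1 in WT and 29.6 to 29.8 in Bach2KO (2 of 4 called higher). For lung epithelial markers the sums were 2.37 to 2.51 and 4.73 to 4.87 (2 of 6 higher). Those of monocyte and interstitial macrophage markers were 14.3 to 14.6 and 21.0 to 21.6 (4 of 9 higher, 2 lower). B cell markers had 0.085 to 0.129 and 0.152 to 0.161 (1 of 4 higher). Any part of RNA from such cells in the results was not tested. In these bulk samples, fewer cells of a type and less RNA per cell cannot be told apart.

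The regulatory sequence upstream of subunit genes is shown first, for the member called lower and for 3 members with positive differences that between them hold the 3 motifs searched. The member called higher, Cox6a2, is not among them, nor is any member with a difference near 0. Each run is the 250 bases before the annotated start, from RefSeq on GRCm38.p6, printed 5′ to 3′ along the gene. Ndufa4 is the member called lower and lies on the minus strand at chr6:11907451-11907700. Cox7a2 (minus strand, chr9:79759854-79760103) has one of the larger positive differences and holds CCGGAA, the core recognised by ETS factors such as GABP. Atp5l (minus strand, chr9:44920743-44920992) holds both CCGGAA and TGCGCA, the core of sites for NRF1, a regulator of many respiratory genes. Cox7c (minus strand, chr13:86046796-86047045) holds TGAATCA, a match to the pattern TGANTCA. This pattern is looser than the core shared by AP-1 sites and by the sites that Bach2 binds with small Maf proteins. That core has C or G at its centre, so the stretch in Cox7c is not it. Capitals mark these motifs on either strand, so CCGGAA may appear as TTCCGG.
Ndufa4: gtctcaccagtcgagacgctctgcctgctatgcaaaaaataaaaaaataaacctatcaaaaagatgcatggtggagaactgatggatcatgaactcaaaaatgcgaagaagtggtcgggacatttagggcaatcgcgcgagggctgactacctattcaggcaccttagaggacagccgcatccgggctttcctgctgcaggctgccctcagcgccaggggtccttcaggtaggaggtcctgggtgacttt
Cox7a2: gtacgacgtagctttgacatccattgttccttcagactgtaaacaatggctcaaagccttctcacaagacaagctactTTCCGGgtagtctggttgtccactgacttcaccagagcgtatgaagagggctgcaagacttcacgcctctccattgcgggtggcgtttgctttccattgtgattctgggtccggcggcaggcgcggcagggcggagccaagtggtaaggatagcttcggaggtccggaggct
Atp5l: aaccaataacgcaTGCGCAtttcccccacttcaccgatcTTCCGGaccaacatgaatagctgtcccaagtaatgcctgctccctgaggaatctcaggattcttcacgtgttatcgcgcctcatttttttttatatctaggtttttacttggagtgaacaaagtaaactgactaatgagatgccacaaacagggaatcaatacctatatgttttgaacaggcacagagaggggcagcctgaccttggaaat
Cox7c: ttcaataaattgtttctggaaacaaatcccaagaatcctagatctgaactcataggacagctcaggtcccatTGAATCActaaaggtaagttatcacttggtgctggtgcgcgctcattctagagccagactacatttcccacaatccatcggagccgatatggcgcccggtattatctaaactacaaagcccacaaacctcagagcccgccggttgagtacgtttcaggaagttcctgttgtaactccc
The promoter of Ndufa4 held none of the 3 motifs in these 250 bases, a statement about these letters only. Of the 65 members matched to a promoter of the table, 20 held CCGGAA (30.8%), against 21.5% of 12108 measured genes and 13.6% of 27025 genes with a promoter. TGCGCA occurred in 14 members (21.5%), against 11.6% and 7.36%. TGANTCA, with any base at its centre, occurred in 6 members (9.23%), against 6.43% of measured genes and 7.82% of all. The members with and without each motif had medians close to each other. The median difference was 0.44 for the 6 members with TGANTCA and 0.35 for the 59 without, and 0.33 for the 14 with TGCGCA and 0.37 for the 51 without. It was 0.38 for the 20 with CCGGAA and 0.35 for the 45 without. The members with TGANTCA were Atp5c1, Cox7c, Ndufa13, Ndufa5, Ndufa9 and Uqcrh, with differences from 0.03 (Ndufa9) to 0.54 (Cox7c).

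Across the 5 complexes, most subunit genes had slightly more signal in Bach2KO than in WT at the array scaling used, whereas scaling to the spike-in control probes turned most positive differences negative. By the 2-fold rule 1 member rose (Cox6a2) and 1 fell (Ndufa4), and 78 were neither. Among all measured genes the same rule called 8.36% higher (1264 of 15123) and 5.9% lower (892), so the members' counts lay below the background in both directions. The arrays of the 2 genotypes did not overlap for 68 members higher in Bach2KO and 8 lower, against 45.6% higher and 39.5% lower among all measured genes. The members' median difference was 0.36, with the middle part of the distribution from 0.21 to 0.50 (quartiles), and all measured genes had a median of 0.06 and quartiles of -0.35 and 0.45. The members' quartiles were closer together than those of all genes, and 69 of the 80 were above the median of all genes. The gap between the 2 arrays of a genotype had a median of 0.07 in WT and 0.04 in Bach2KO over the members, with the widest gaps at 0.29 (Cox6c, WT) and 0.43 (Ndufa4l2, Bach2KO).

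The direction of this family depends on the scaling. With each array centred on 9 spike-in probes (E1A), all differences shifted by -0.72, and the members' median became -0.36 and that of all genes -0.66. Under that scaling 2 members kept a positive difference and 78 had a negative one. The count above the median of all genes, 69 of 80, cannot change when all differences shift alike. Centring on the array median shifted all differences by -0.10 and gave a members' median of 0.26 against -0.04 for all genes. Quantile normalization gave 0.22 against 0.01. The median of the members minus that of all genes was between 0.21 and 0.31 over the processings compared, and 64 to 69 members were above the median of all genes. Spike-in scaling, median centring and the deposited values shift all genes alike, so they could not move either value. Unless said otherwise, the values that follow are on the 75th percentile scale, and a difference between genotypes is lower by 0.72 on the spike-in scale.

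**Figure D1:**
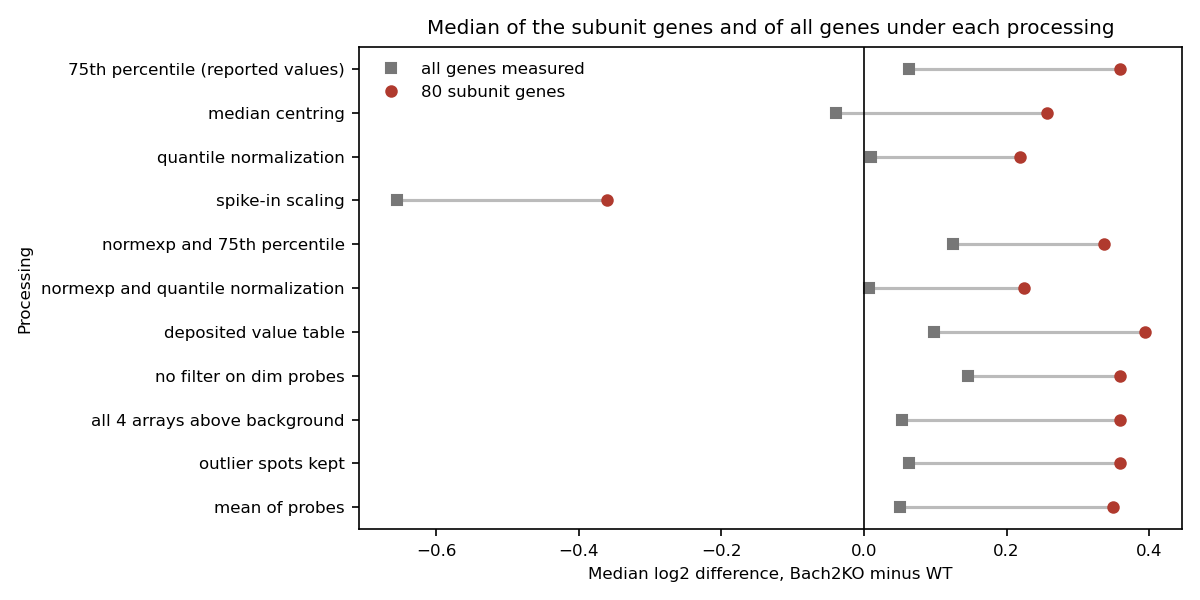
Median log2 difference (Bach2KO minus WT, horizontal axis) of the 80 subunit genes (red circles) and of all measured genes (grey squares) under each processing (vertical axis), with a line joining each pair. The circle is to the right of the square in every row, at 0.36 against 0.06 for the reported values, and both medians are negative (-0.36 and -0.66) under spike-in scaling. Rows that shift all genes alike keep the same gap by construction.

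Brightness moved with the difference. The 50 members with a mean signal of at least 4 on the log2 scale had a median difference of 0.46, and the 30 dimmer members had 0.19. Among all measured genes the 975 at that brightness had a median of 0.19, and the 14148 dimmer genes had 0.05. At that brightness the arrays did not overlap for 48 of the 50 members higher in Bach2KO and 1 lower. Among the 975 genes the counts were 593 and 291. For the 30 dimmer members they were 20 and 7, against 6298 and 5683 of the 14148 dimmer genes. The shares of 45.6% and 39.5% used throughout are over genes of any brightness. The part of brightness in the members' differences was not tested. Of the members, 58 were read by 1 probe and 22 by several, and in 21 of the 22 the probes' differences lay within 0.3 of each other. The exception was Ndufv3, a small accessory subunit of complex I with alternative transcripts: its shown probe differed by 0.47 and a dimmer probe by -0.71. Atp5pb, a stalk subunit of complex V, had probes at 0.07 and -0.05.

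Complex I is the NADH dehydrogenase of the chain, with a catalytic core that carries flavin and iron-sulphur clusters and many accessory subunits around it. Its 37 measured genes had a median difference of 0.34, on a scale whose sign turned under spike-in scaling (median -0.38). The arrays did not overlap for 30 genes higher in Bach2KO and 4 lower, against 45.6% and 39.5% of all measured genes. The nuclear core genes and the accessory genes had different values. The 6 core genes reported had a median of 0.15, against 0.06 for all genes, with 3 not overlapping and higher, 2 lower and 1 overlapping. The 28 accessory genes, counted without Ndufa4 and Ndufa4l2, had a median of 0.37, with 27 not overlapping and higher, and 1 overlapping. Relative to all genes, the core median lay between -0.0026 and 0.096 over the processings compared and the accessory median between 0.22 and 0.32, so the order of the 2 groups was kept under each of them. Processings that shift all genes alike could not change that order.

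Among the core genes, Ndufv1, which binds NADH and the flavin, read 4.88 and 4.91 in WT and 4.72 and 4.62 in Bach2KO, a difference of -0.23. Ndufs8, which holds iron-sulphur clusters on the path to coenzyme Q, read 2.40 and 2.46 against 2.32 and 2.34 (-0.10). In these 2 genes both Bach2KO arrays were below both WT arrays, the closest pairs of arrays differing by -0.16 and -0.05. Ndufs1, the large subunit of the NADH-oxidising module, read 3.61 and 3.71 against 3.77 and 3.71 (0.08), with the WT and Bach2KO arrays touching. Ndufs7, which carries the last cluster of the chain, read 4.52 and 4.48 against 4.74 and 4.69 (0.21). Ndufv2, the partner of Ndufv1, read 3.88 and 3.72 against 4.11 and 4.09 (0.30). Ndufs3, a scaffold subunit of the arm in the matrix, gave the highest difference of the core: it read 3.91 and 3.998 against 4.28 and 4.37 (0.37).

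Among the accessory genes the differences ran from -0.01 (Ndufa10) to 0.71 (Ndufc1). Ndufc1, a small membrane-arm subunit, read 4.05 and 3.97 in WT and 4.77 and 4.67 in Bach2KO, a 1.64-fold difference and the only one of complex I above 1.5-fold in all 4 array pairs on the positive side. Ndufs5 read 4.31 and 4.33 against 4.90 and 4.90 (0.58), and Ndufa1, another small membrane-arm subunit, 4.68 and 4.57 against 5.20 and 5.21 (0.58). Ndufa12 (0.57), Ndufa2 (0.56) and Ndufs6 (0.52), accessory subunits of the matrix arm, were close to these. Genes of the same arm with smaller differences were Ndufa9 (0.03) and Ndufs4 (0.10). Of the membrane arm, Ndufa10 had -0.01 and Ndufb10 had 0.16. The members with differences near 0 thus included accessory as well as core genes.

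**Figure D2:**
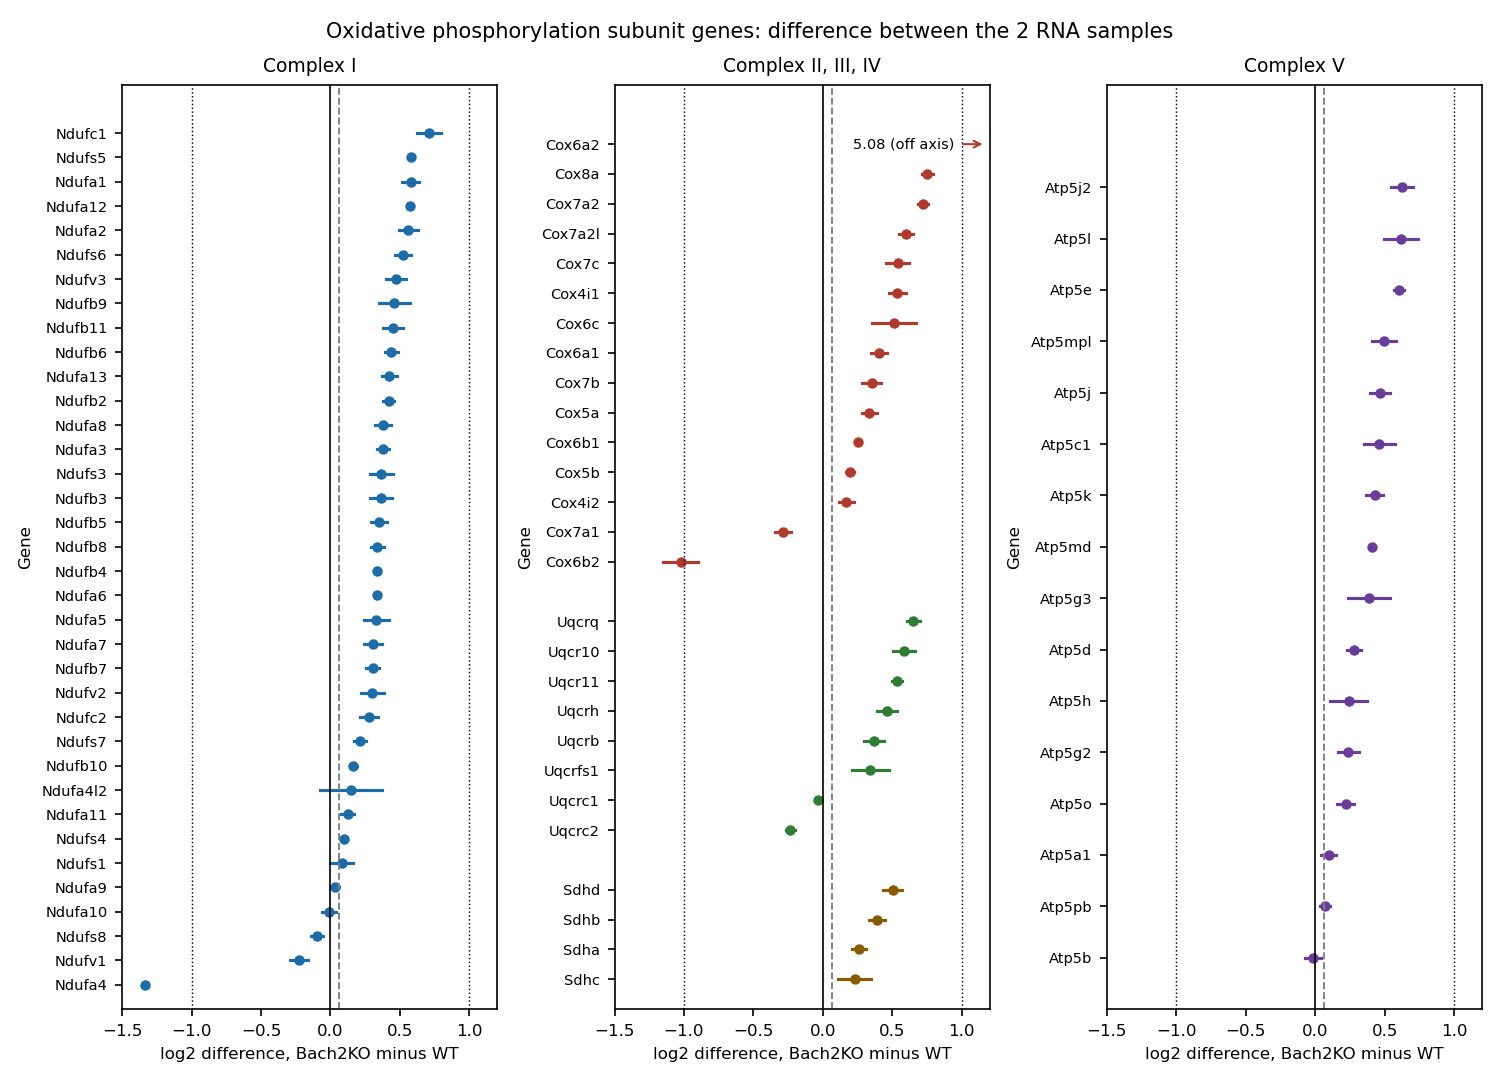
Log2 difference between Bach2KO and WT (horizontal axis) for 79 of the 80 measured subunit genes (vertical axis, by complex): points are differences of array means, bars span the 4 array pairs, the dashed line is the median of all genes (0.06) and dotted lines mark 2-fold. The middle of the points lies between 0.22 and 0.50 (quartiles), Ndufa4 lies past the lower 2-fold line at -1.33, and Cox6a2 is off the axis at 5.08, all on a scale that shifts by -0.72, to mostly negative values, with spike-in scaling.

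Complex II, succinate dehydrogenase, links the tricarboxylic acid cycle to the chain and has no subunit encoded in mitochondrial DNA. All 4 of its genes had arrays that did not overlap and were higher in Bach2KO, as did 45.6% of all measured genes. Their median was 0.33, which spike-in scaling turned to -0.39, and 0 passed the 2-fold rule. Sdha, the flavoprotein that oxidises succinate, read 3.87 and 3.79 in WT and 4.10 and 4.08 in Bach2KO (0.26). Sdhb, the iron-sulphur subunit, read 4.99 and 4.92 against 5.36 and 5.33 (0.39). The membrane anchors were Sdhc, at 3.16 and 3.06 against 3.41 and 3.27 (0.23), and Sdhd, at 4.32 and 4.24 against 4.75 and 4.81 (0.50). The 4 subunits thus had differences of one sign, from 0.23 to 0.50 on the 75th percentile scale.

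Complex III, the cytochrome bc1 complex, had 8 measured genes with a median of 0.42 (-0.30 on the spike-in scale), and 0 passed the 2-fold rule. Its core proteins did not share the value of the small subunits. Uqcrc2 read 4.05 and 4.03 in WT and 3.83 and 3.78 in Bach2KO (-0.23), and Uqcrc1 read 3.21 and 3.24 against 3.20 and 3.19 (-0.03). Both are large scaffold subunits that face the matrix, and both had Bach2KO arrays below the WT arrays, for Uqcrc1 by a difference of the size of the gap between its WT arrays (0.03). The other 6 genes had a median of 0.50 and Bach2KO arrays above the WT arrays, as had 45.6% of all measured genes. They included Uqcrfs1, the Rieske iron-sulphur protein, at 3.83 and 3.60 against 4.08 and 4.04 (0.34). Uqcrq, a small subunit that binds near cytochrome b, read 5.29 and 5.28 against 5.98 and 5.89 (0.65). Uqcr10 (0.58), Uqcr11 (0.53), Uqcrh (0.46) and Uqcrb (0.37), further small subunits, completed the group.

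Complex IV, cytochrome c oxidase, reduces oxygen with core subunits encoded in mitochondrial DNA, and its nuclear subunits come partly as pairs of isoforms used in different tissues. Its 15 measured genes had a median of 0.40, or -0.32 on the spike-in scale. The 11 genes that are not tissue-restricted isoforms had a median of 0.51, from 0.19 (Cox5b) to 0.75 (Cox8a), before the shift of -0.72 that spike-in scaling gives. Their arrays did not overlap, with Bach2KO higher in 11 of 11, against 45.6% of all measured genes. The 11 follow the symbol rule. They leave out Ndufa4, whose protein is now placed in this complex and which was called lower (-1.33). They include Cox7a2l, which is not a structural subunit. Cox8a, the broadly used Cox8 isoform, read 6.08 and 6.01 in WT and 6.79 and 6.80 in Bach2KO, a 1.68-fold difference. Cox7a2, the isoform of most tissues other than striated muscle, read 4.09 and 4.06 against 4.82 and 4.77 (0.72). Cox7a2l, which joins complexes III and IV into supercomplexes, read 5.57 and 5.53 against 6.12 and 6.18 (0.60). These 3 genes had the largest differences among the 11, and Cox8a and Cox7a2 were above 1.5-fold in all 4 array pairs. Cox4i1, the largest nuclear subunit and the site where ATP regulates the enzyme, read 6.01 and 5.92 against 6.48 and 6.52 (0.54). Cox7c, whose promoter holds TGANTCA, read 3.95 and 3.80 against 4.41 and 4.42 (0.54), and Cox6c, an inner membrane subunit, had 0.51. Cox5a, which binds a thyroid hormone metabolite, read 6.18 and 6.14 against 6.46 and 6.53 (0.33), and Cox5b, which binds zinc, read 4.73 and 4.73 against 4.95 and 4.90 (0.19). Those matrix-side subunits were thus at the lower end of the complex. Cox7b, a small membrane subunit, read 4.81 and 4.70 against 5.12 and 5.09 (0.35).

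The largest difference of the whole set was that of 1 isoform gene of complex IV. Cox6a2, on chromosome 7, encodes the Cox6a isoform known from heart and skeletal muscle. The WT arrays read -3.09 and -3.22 on the log2 scale, and the Bach2KO arrays 1.91 and 1.93. The means were -3.16 ± 0.09 (SD, n = 2 arrays) and 1.92 ± 0.01, a difference of 5.08, so the gene rose 33.8-fold in the Bach2KO sample. The array pairs ranged from 5.01 to 5.15, and the difference was 4.36 to 5.11 over the other processings, with the call kept in 10 of 10. Changing the filter, keeping outlier spots and taking the mean of probes left its value at 5.08, so these could not move the call. The partner isoform of most tissues, Cox6a1, read 6.97 and 6.87 in WT and 7.33 and 7.31 in Bach2KO (0.40), and was not called. Without Cox6a2 the members' median was 0.35. Of the 6 striated muscle markers looked at, Myoglobin (Mb) was not measured, 0 of the other 5 were called higher, and Tnnt2 was at least 2.70-fold lower as a bound. Their summed signal was 0.183 to 0.198 times the 75th percentile in WT and 0.235 to 0.343 in Bach2KO. The largest positive difference among them was that of Myh7, a myosin heavy chain, at -3.78 and -3.95 in WT and -3.09 and -2.23 in Bach2KO, not called. Any part of muscle RNA in the value of Cox6a2 was not tested.

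The 3 other tissue-restricted isoforms of complex IV had smaller values. Cox6b2, known as the testis isoform, read 1.30 and 1.37 in WT and 0.22 and 0.40 in Bach2KO, a difference of -1.02 with array pairs from -1.15 to -0.90. It was 2.03-fold lower in the mean, but not every array pair reached 2-fold, so it was not called, except under spike-in scaling. Its partner Cox6b1, of most tissues, read 2.74 and 2.74 against 2.98 and 3.01 (0.25). Cox7a1, the striated muscle isoform, read 0.27 and 0.23 against -0.07 and 0.01 (-0.29), whereas its partner Cox7a2 had 0.72 on the same scale. Cox4i2, the isoform of lung and of cells that sense low oxygen, read -1.08 and -1.18 against -0.96 and -0.96 (0.17). The isoforms that were not measured, Cox7b2 (known from testis), Cox8b (heart and muscle) and Cox8c (testis), read from -8.47 to -7.02 on the 4 arrays, where no fold can be given. Of the muscle isoforms Cox6a2, Cox7a1 and Cox8b, therefore, only Cox6a2 was called higher in these arrays.

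Ndufa4, on chromosome 6, is the member called lower. Named for complex I, its protein is now placed in complex IV. The WT arrays read 3.60 and 3.61 and the Bach2KO arrays 2.27 and 2.27, a difference of -1.33, so it fell 2.52-fold. The array pairs ranged from -1.34 to -1.33, and the call was kept in 10 of 10 other processings (-2.05 to -1.30). Changing the filter, keeping outlier spots and taking the mean of probes left its value at -1.33, so these could not move the call. Its relative Ndufa4l2, a gene induced under low oxygen, read -4.52 and -4.54 against -4.60 and -4.17 (0.15), with overlapping arrays. Another relative is AA467197 (also called Nmes1), an inflammation-induced gene whose product is known to take the place of Ndufa4 in complex IV and whose transcript also holds miR-147. It is outside the symbol rule and was looked at after its values were seen. AA467197 read -1.79 and -1.84 in WT and 4.65 and 4.68 in Bach2KO, a difference of 6.48 or 89.3-fold higher, and was called in 10 of 10 other processings (5.76 to 6.52). For this gene too, the filter, the outlier spots and the mean of probes left the value as it was. The arrays thus showed the 2 paralogs called in opposite directions. The array's probes do not measure mature miR-147, which was not analysed here.

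**Figure D3:**
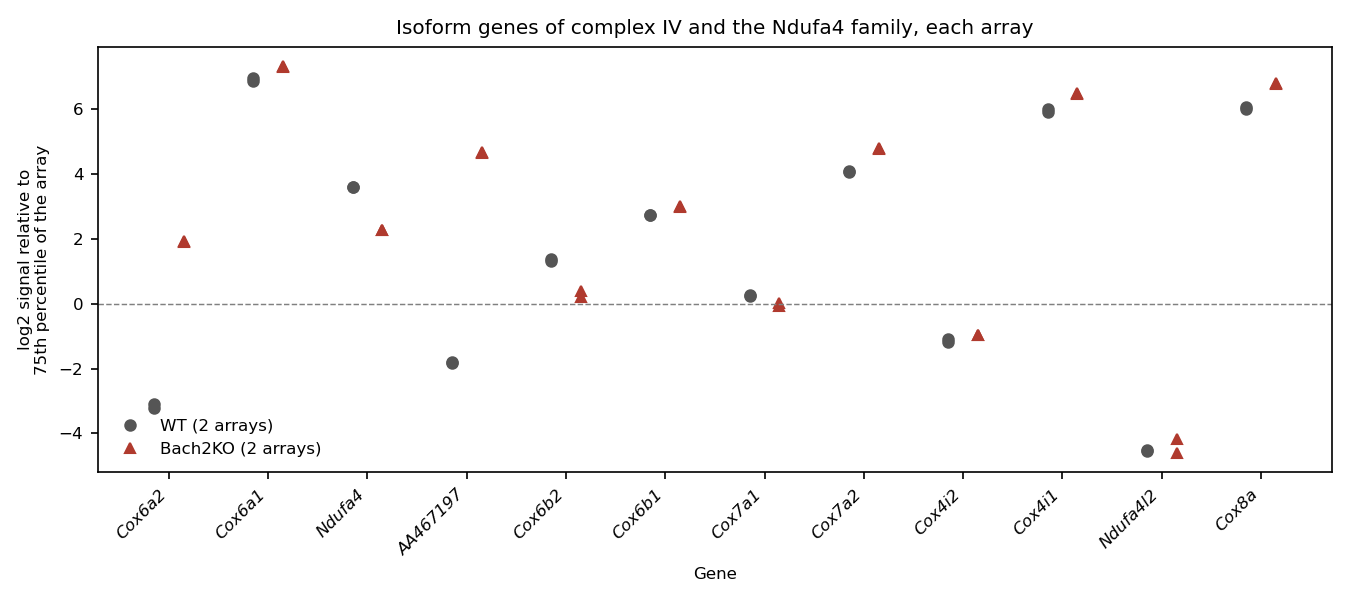
Log2 signal relative to the array's 75th percentile (vertical axis) on each WT array (grey circles) and each Bach2KO array (red triangles) for complex IV isoform genes, Ndufa4 and its relatives (horizontal axis). The genotypes stand farthest apart for Cox6a2 (5.08) and AA467197 (6.48) upward and for Ndufa4 (-1.33) and Cox6b2 (-1.02) downward. Ndufa4l2 is the only gene drawn whose arrays overlap, and heights of different genes are not comparable.

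Complex V, ATP synthase, has a catalytic F1 head and a membrane Fo part that turns with the proton flow. Its 16 measured genes had a median of 0.40, or -0.32 on the spike-in scale. Before that shift the arrays did not overlap for 15, with Bach2KO higher, against 45.6% of all measured genes, and 0 passed the 2-fold rule. The alpha and beta subunits of the head were among the 3 smallest differences. Atp5b, the beta subunit that holds the catalytic sites, read 6.52 and 6.48 in WT and 6.52 and 6.45 in Bach2KO (-0.02), with overlapping arrays. Atp5a1, the alpha subunit that alternates with it in the head, read 5.62 and 5.63 against 5.77 and 5.67 (0.10). Atp5c1, the gamma subunit that turns inside the head, read 5.03 and 4.94 against 5.38 and 5.51 (0.46). Atp5d, the delta subunit, had 0.28, and Atp5e, the epsilon subunit, read 5.48 and 5.42 against 6.04 and 6.06 (0.60). The 5 F1 genes thus ranged from -0.02 to 0.60, with a median of 0.28.

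The other 11 genes of complex V had a median of 0.41, and the largest differences were in small membrane subunits. Atp5j2, the f subunit, read 5.21 and 5.12 in WT and 5.83 and 5.76 in Bach2KO (0.62). Atp5l, the g subunit, read 5.30 and 5.06 against 5.79 and 5.80 (0.61), and its 2 WT arrays were the farthest apart of the complex. Both subunits lie where ATP synthase dimers form. Atp5mpl (0.50) and Atp5md (0.41), small proteins of the same membrane part, and Atp5j (0.47), of the peripheral stalk, followed. The ring of c subunits is encoded by 3 isoform genes, of which Atp5g1 was not found on the array. Atp5g2 read 6.12 and 6.07 against 6.28 and 6.38 (0.24), and Atp5g3 read 5.82 and 5.67 against 6.06 and 6.21 (0.39). The stalk subunits Atp5o (0.22) and Atp5pb (0.07) were at the low end of this group.

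The other genes of the pathway are given from lists of assembly factors, carriers, enzymes and regulators. Beside their counts of called genes stand the shares over all measured genes, 8.36% higher and 5.9% lower. Assembly factors, which build the complexes but are not part of them, had medians of -0.01 for complex I (15 measured), 0.01 for complexes II and III (9), 0.24 for complex IV (21) and 0.08 for complex V (3), against 0.06 for all genes. The 2-fold rule called 1 complex I factor, Timmdc1, needed to build the membrane arm, at 1.74 and 1.62 in WT and 3.04 and 3.15 in Bach2KO (1.42, 2.67-fold higher). It called 1 complex IV factor, Cox10, the haem O synthase, at -2.80 and -2.76 against -1.42 and -1.505 (1.32, 2.49-fold higher). Both calls were lost under spike-in scaling, that of Timmdc1 also with the mean of probes and that of Cox10 with normexp and quantile normalization. No factor of complexes II, III and V was called: the largest differences were 0.72 (Uqcc2) and -0.59 (Ttc19), both complex III factors, and 0.15 (Atpaf1) and -0.12 (Atpaf2), which assemble F1. The difference of Ttc19 turned to 0.14 with the mean of probes. Under spike-in scaling Ttc19 was called lower (-1.31).

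Carriers and subunits outside the symbol rule had a median of 0.24 over 9 genes, and 0 were called. Cycs, cytochrome c, had the largest difference (0.87), at 4.05 and 4.01 in WT and 4.88 and 4.92 in Bach2KO. Atpif1, the inhibitor of ATP hydrolysis by complex V, followed at 0.73, while Cyc1, the cytochrome c1 of complex III, had 0.19, and Ndufab1, the acyl carrier subunit of complex I, had 0.49. The 12 genes of coenzyme Q synthesis had a median of -0.04, with Coq8a, a kinase-like protein of the pathway, called lower (-1.16, 2.23-fold) except with normexp. Coq4, of the same list, was 2.07-fold higher in the mean (1.05) and not called. The 19 genes of the tricarboxylic acid cycle and pyruvate dehydrogenase had a median of 0.20, and 2 were called higher, against 8.36% of all measured genes. They were Pcx, pyruvate carboxylase, which supplies oxaloacetate (1.80, 3.48-fold), and Ogdh, a subunit of 2-oxoglutarate dehydrogenase (1.16, 2.24-fold). Both calls were lost under spike-in scaling, and that of Ogdh also with quantile normalization. The 16 protein import genes had a median of 0.19 with 0 called (Timm21 at -0.60 and Tomm20 at 0.52). The 77 mitochondrial ribosomal protein genes had a median of 0.01 with 0 called, 35 not overlapping and higher and 27 lower, shares near the 45.6% and 39.5% of all genes. Their largest differences were 0.93 (Mrpl41) and 0.74 (Mrpl20).

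The regulators of mitochondrial biogenesis and mitochondrial DNA had a lower median than the subunit genes. Over 16 measured genes it was -0.37, with 13 not overlapping and lower in Bach2KO and 2 higher, against 39.5% and 45.6% of all measured genes. Relative to all genes the median lay between -0.43 and -0.35 over the processings compared. The rule called 1 of them lower, Polg2, the accessory subunit of the mitochondrial DNA polymerase (-1.23, 2.35-fold), a call lost with normexp and with the mean of probes. Nrf1, which binds the TGCGCA core, read 0.24 and 0.20 in WT and -0.40 and -0.39 in Bach2KO (-0.61). Gabpa, which binds the CCGGAA core, read 0.16 and 0.08 against -0.52 and -0.43 (-0.59). Tfam, which packages mitochondrial DNA, read 1.02 and 1.12 against 0.56 and 0.52 (-0.53), and Esrra, a nuclear receptor acting on respiratory genes, read 3.41 and 3.32 against 2.93 and 2.89 (-0.46). These 4 genes had differences of opposite sign to the median of the subunits on the 75th percentile scale, and none was called on it. Under spike-in scaling the subunits' median was negative too (-0.36). There the 16 regulators had a median of -1.08 and 8 were called lower, against 3175 of 15123 measured genes. Ssbp1, the mitochondrial single-strand binding protein, was on the other side (0.33), and Ppargc1a was not measured. Among 9 nucleotide, phosphate and proton carriers (median 0.13), Ucp1, the uncoupling protein of brown fat, was the 1 gene called. It was not well above background in Bach2KO and at least 2.30-fold lower as a bound, a call lost with normexp. The subunits encoded in mitochondrial DNA were not matched to probes through the gene table and were not analysed here.

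**Figure D4:**
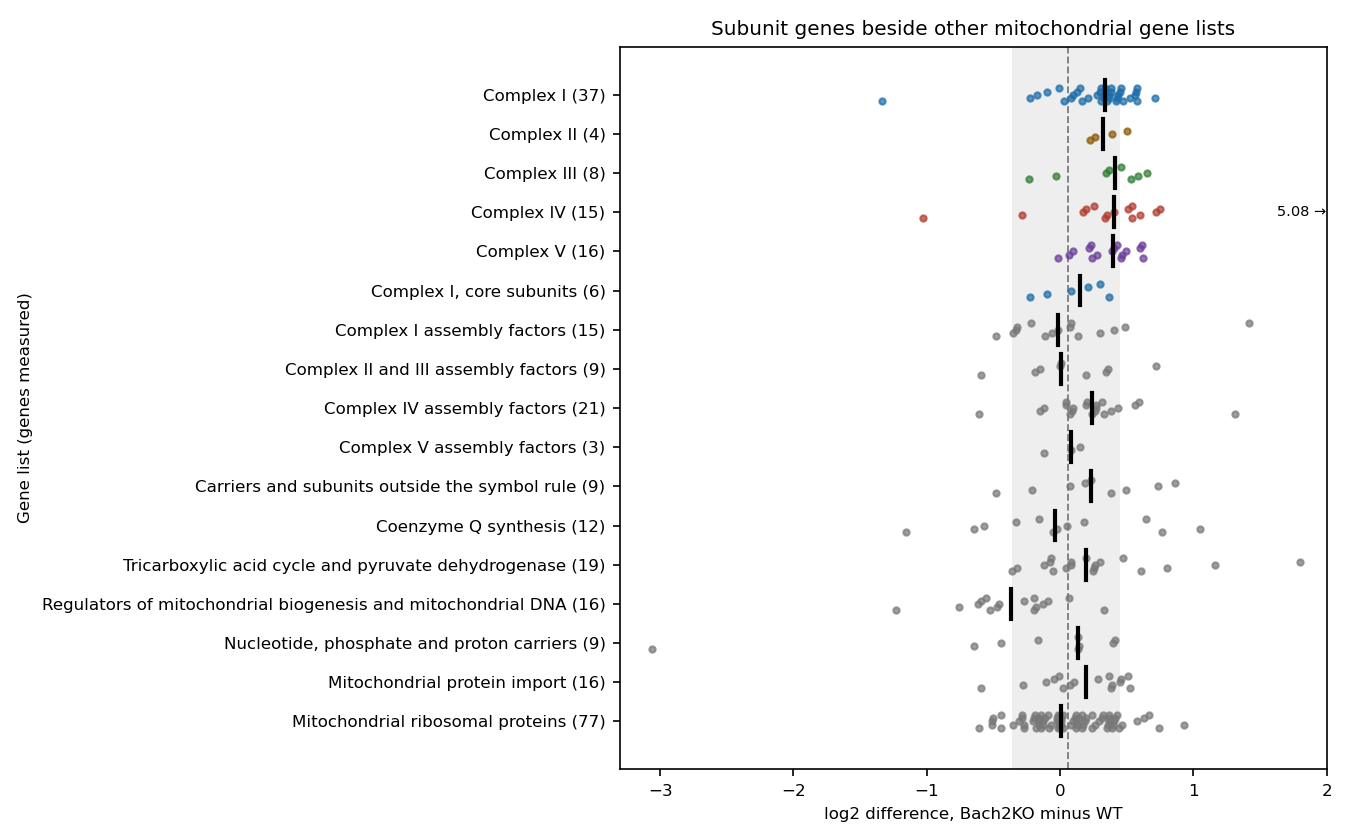
Log2 difference between Bach2KO and WT (horizontal axis) of each measured gene of the 5 complexes (coloured), of 6 complex I core genes and of the other mitochondrial gene lists (grey), with the number measured in parentheses (vertical axis). Black bars are medians, the dashed line is the median of all genes (0.06) and the grey band spans their quartiles; the complexes' medians lie at 0.33 to 0.42, those of the assembly factors of complex I at -0.01 and of the regulators at -0.37, and all are 0.72 lower, hence negative, with spike-in scaling.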

How the data were processed

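Agilent single-colour arrays measured RNA of WT and Bach2KO alveolar macrophages, 1 pooled RNA sample a genotype on 2 arrays each. The authors deposited scanner files whose processed signals are intensity values, background-subtracted by Feature Extraction, version 10.7.3.1 per the file headers (9.1 per the submitters' processing notes). The value table the authors deposited holds the same signals as log2 values less a constant on each array, found by comparing the columns, and served as an alternative. Here the log2 of each processed signal was taken less the array's 75th percentile over non-control spots. Outlier spots (109 to 136 of 43020) were left out, and 0 spots were saturated. Probes were named through RefSeq's gene table (GRCm38.p6, used for names and promoters): 26055 of 39429 had 1 symbol and 13374 none. The brightest probe stood for a gene. Where any array of a genotype left a gene short of the scanner software's mark for well above background, it had to reach 2-fold also as a bound, against the lowest signal marked well above background. R 4.3.3 with limma 3.58.1 (normexp with offset 50, quantile) and Python 3.11.15 were used, and the calling was tested on simulated data. The number of arrays limits the precision. Named genes were members called, the 3 largest and 3 smallest differences of each complex, catalytic and isoform genes, and called genes of the lists. Further members and list genes outside this rule were named as examples. The members and lists were chosen with earlier results of these data known. The values of 1 member are not reported here, though it stays in the counts over all members and complex I.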

Additional observations from a re-analysis of the deposited data

How the results depend on the processing

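Scaling moved the medians most. Spike-in scaling reversed the median of all members to -0.36 and those of complexes I to V to -0.38, -0.39, -0.30, -0.32 and -0.32, since it shifts all differences by -0.72. The same 6 medians were 0.26, 0.23, 0.22, 0.31, 0.30 and 0.30 with median centring, 0.22, 0.21, 0.21, 0.28, 0.23 and 0.24 with quantile normalization, and 0.22, 0.21, 0.23, 0.27, 0.26 and 0.21 with normexp and quantile normalization. Normexp with the 75th percentile gave 0.34 for complex IV. With each array left out in turn, the medians were 0.33 to 0.39 for all members, 0.39 to 0.48 for complex III and 0.35 to 0.45 for complex IV. The count of members lower was 1 to 2, Cox6b2 joining without Bach2KO array 2, and that of members higher stayed at 1.

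The count of members lower was also 2 under spike-in scaling and with 2-fold in array means, and 0 at 3-fold. At 1.5-fold 5 members were higher and 2 lower, against 14.8% and 12.8% of all genes. With any fold in one direction in all 4 pairs, 68 were higher and 8 lower, against 45.6% and 39.5% of all genes. Added after seeing the data, the same count was 1 higher and 73 lower with spike-in scaling, against 11.8% and 80.4% of all genes. It was 61 and 11 with median centring (38.3% and 44.7% of all genes), and 63 and 10 with quantile normalization (42.5% and 42.1%). Spike-in scaling also changed the split of all genes, from 1264 higher and 892 lower by the 2-fold rule to 627 and 3175. Of 616 values of 44 single genes under the alternatives, 452 moved by less than the spread between arrays, 164 moved by more and 0 called values changed sign. The 452 include values that a processing left unchanged, as for genes read by 1 probe. The spike-in shift of -0.72 could not have reversed the called genes Cox6a2 (5.08), AA467197 (6.48) and Ndufa4 (-1.33). Genes that were not called did change sign. Of the 80 members, 70 had a positive difference at the array scaling used and 2 under spike-in scaling. No paired analysis was possible because the replicate numbers name technical splits of 1 RNA sample and the results come from no test. The 80 members were well above background on all 4 arrays, but the handling of background still moved the fold of a dim one. With normexp and the 75th percentile Cox6a2 read -2.47 in WT in place of -3.16. Its fold was then 23.0 in place of 33.8. Cox7b2, Cox8b, Cox8c and Bach2 cannot be read at this sensitivity.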

Other observations

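The genes that flank Cox6a2 on chromosome 7 were read as well, after the value of Cox6a2 was known. Itgad, the integrin alpha D gene next to Cox6a2 in gene order, read 0.67 and 0.56 in WT. It was not well above background on either Bach2KO array and was at least 104-fold lower there as a bound. Itgax, the integrin of CD11c, read 6.57 and 6.44 in WT and 7.09 and 7.09 in Bach2KO (0.59), and Itgam, that of CD11b, had a difference of 0.22. On the other side of Cox6a2, 9130023H24Rik had 0.31 and Armc5 had -0.34. Adjacent genes thus had calls of opposite sign, Cox6a2 higher and Itgad lower, and the 4 other neighbours read were neither. Around Ndufa4, the neighbours Phf14 (-0.33), Thsd7a (0.56) and Tmem106b (0.95) on one side and Ica1 (-0.76) and Glcci1 (-0.13) on the other were not called either.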
